A study of Homo sapiens with 16 samples.

Results

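The RELA (p65) chromatin immunoprecipitation sequencing (ChIP-seq) libraries of T47D cells with DAB2IP knockdown were compared with those of control cells. T47D is an established estrogen receptor-positive breast cancer line of the Luminal A type. All cells received a lentivirus and puromycin at 2 μg/ml for 72 hours, carrying either shRNA against DAB2IP (KD_P65, 2 libraries) or the control construct (Control_P65, 2 libraries). The labels call that construct an empty vector control shRNA, and the study elsewhere calls its T47D control a scrambled shRNA. These 4 libraries were all those made with the RELA antibody, out of 12 libraries with a peak list and 16 in the series. The libraries without a peak list were inputs, 1 per condition and replicate number. The cells were selected pools. The study lists more than 1 shRNA, and the labels do not say which was in each library or whether replicates came from separate cultures, so p-values measure only the spread between these libraries. The peak lists hold no RNA or protein value, and the knockdown itself could not be checked from them. Read totals are in none of the lists, and the depth is therefore unknown.

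RELA is the transactivating subunit of the canonical NF-κB dimer. The inhibitor IκBα keeps it in the cytoplasm until the IKK kinases mark that inhibitor for degradation, and the freed dimer then binds κB sites in promoters and enhancers of inflammatory, survival and feedback genes. DAB2IP is a RasGAP that also restrains NF-κB signaling, so the comparison asks where RELA peaks differ when it is depleted.

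κB matches were searched in the 250 bases upstream of 15812 protein-coding gene starts, on both strands, with the κB consensus. A match is a description of the letters and not a binding site. Of all these promoters, 5.68% held a match. Peaks of knockdown 1 and knockdown 2, with none of the controls, overlapped the window from 250 bases before to 50 after the start in 22 genes, of which 1 held a match. This was SMG1, a kinase of nonsense-mediated mRNA decay. The same in both control libraries was found in 97 genes, of which 3 held a match. They were CHAF1B, a subunit of the chromatin assembly factor CAF-1, STAB1, a scavenger receptor, and ZSWIM2. In the 4 pairings of a knockdown with a control library, the counts were 0 of 25, 0 of 24, 5 of 96 and 7 of 92. The share with a match was 4.55% for the knockdown pair (exact 95% binomial interval 0.115 to 22.8, counting error only) and 3.09% for the control pair (0.642 to 8.77), and both intervals include the share of all promoters. The 4 sequences follow, with those of NFKBIA, which encodes IκBα, and CXCL1, a chemokine gene and known target. They are RefSeq sequences (GRCh38.p14) in the direction of the gene, 250 bases that end at the base before the start, with matches in capitals.
SMG1 (chr16:18926409-18926658, minus strand): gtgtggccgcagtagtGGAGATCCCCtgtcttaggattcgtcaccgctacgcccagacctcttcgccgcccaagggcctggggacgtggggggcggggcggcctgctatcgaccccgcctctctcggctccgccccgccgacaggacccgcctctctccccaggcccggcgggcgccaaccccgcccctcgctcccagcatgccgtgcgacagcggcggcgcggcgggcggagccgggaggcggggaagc
CHAF1B (chr21:36385142-36385391, plus strand): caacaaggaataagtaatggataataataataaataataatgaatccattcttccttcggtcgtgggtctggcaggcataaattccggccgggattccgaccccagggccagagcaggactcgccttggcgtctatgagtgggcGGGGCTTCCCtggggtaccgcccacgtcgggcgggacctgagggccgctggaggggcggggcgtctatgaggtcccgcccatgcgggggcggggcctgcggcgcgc
STAB1 (chr3:52495088-52495337, plus strand): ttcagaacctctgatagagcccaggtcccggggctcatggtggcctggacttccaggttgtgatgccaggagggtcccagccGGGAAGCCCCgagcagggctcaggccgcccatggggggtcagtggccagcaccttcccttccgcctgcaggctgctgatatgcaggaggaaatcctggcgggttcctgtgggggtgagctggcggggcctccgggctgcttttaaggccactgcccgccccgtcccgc
ZSWIM2 (chr2:186849171-186849420, minus strand): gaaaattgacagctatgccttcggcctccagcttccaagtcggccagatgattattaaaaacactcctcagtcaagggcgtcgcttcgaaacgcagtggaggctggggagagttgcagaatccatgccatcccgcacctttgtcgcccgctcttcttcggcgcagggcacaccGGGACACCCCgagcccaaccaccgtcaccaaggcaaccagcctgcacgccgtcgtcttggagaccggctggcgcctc
NFKBIA (chr14:35404750-35404999, minus strand): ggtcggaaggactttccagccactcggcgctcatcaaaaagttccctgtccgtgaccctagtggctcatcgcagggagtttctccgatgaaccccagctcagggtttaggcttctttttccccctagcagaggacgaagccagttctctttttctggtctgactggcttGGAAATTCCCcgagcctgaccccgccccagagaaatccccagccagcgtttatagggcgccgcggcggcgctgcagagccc
CXCL1 (chr4:73869143-73869392, plus strand): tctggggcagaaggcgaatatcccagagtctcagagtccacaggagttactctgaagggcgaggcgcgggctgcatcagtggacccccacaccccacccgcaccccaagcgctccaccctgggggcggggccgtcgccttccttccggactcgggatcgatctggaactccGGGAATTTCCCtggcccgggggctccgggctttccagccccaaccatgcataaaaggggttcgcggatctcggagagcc
The NFKBIA window was overlapped by a peak of control 1 and of no other RELA library. The CXCL1 window, with 2 matches that overlap each other, was overlapped by none. Among the known NF-κB targets with an annotated window, 8 of 17 held a match. Only the ICAM1 window, which held none, was overlapped by a peak in any library. Over all promoters, 77.2% of the windows were overlapped by no peak. In the wider span within 1 kb of the start, 11 of the 17 had a peak in at least 1 library. No library had one there in 35.8% of all coding genes with a start.

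The peak lists were of unequal length. After intervals over 5000 bp were dropped and duplicates counted once, chromosomes 1 to 22 and X held 105520 peaks in knockdown 1, 687414 in knockdown 2, 527111 in control 1 and 517399 in control 2. The knockdown mean was 396467 ± 411461 (SD, n = 2) and the control mean 522255 ± 6867 (SD, n = 2). The knockdown libraries lay on either side of both controls, and the log2 difference of -0.96 had an exact two-sided permutation p of 1. With 2 libraries against 2 the smallest p this test can give is 0.33. Median peak lengths were 169, 172, 188 and 192 bp in the same order. A q-value of at most 0.05 was reached by 43, 113, 149 and 179 peaks.

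Merging peaks that shared at least 1 bp gave 1629773 regions, of which 88.5% were called in a single library. Both knockdown libraries and neither control called 9231 regions (0.566% of all, knockdown-only), and both control libraries and neither knockdown called 39710 (2.44%, control-only). The mixed pairings gave 6918 (0.424%) for knockdown 1 with control 1, 6757 (0.415%) for knockdown 1 with control 2, 55879 (3.43%) for knockdown 2 with control 1 and 52751 (3.24%) for knockdown 2 with control 2. Each pairing that held the short list of knockdown 1 was small. Set over the shorter list of the pair, the knockdown-only regions were 8.75%, the control-only regions 7.67%, and the mixed pairings 6.40% to 10.6%. Both condition-only values thus lay inside the range of the mixed pairings, but that range joins unlike pairs. The knockdown-only value was above both mixed pairings that hold knockdown 1 (6.56% and 6.40%). The control-only value was below both that hold knockdown 2 (10.6% and 10.2%). Division by the shorter list takes no account of the length of the longer one. A further 15376 regions were called in 3 libraries and 563 in all 4.

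**Figure D1:**
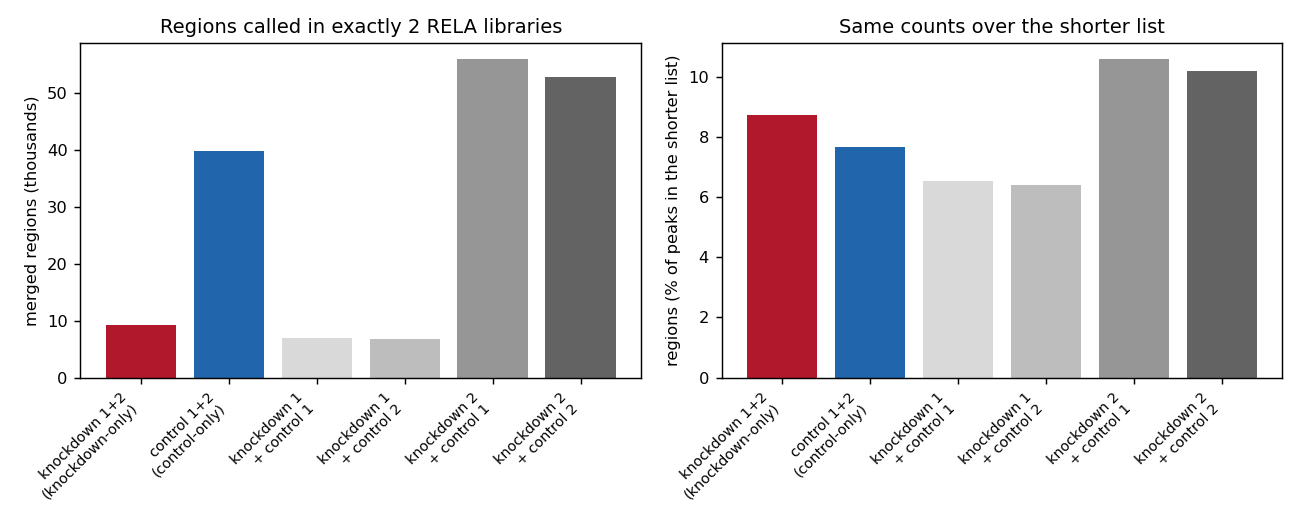
Regions called in exactly 2 of the 4 RELA libraries, by pair of libraries. The left bars give the number of merged regions in units of 1000 and the right bars the same counts as a percentage of the peaks in the shorter list; the knockdown-only bar on the right, 8.75%, stands between mixed bars of 6.40% and 10.6%.

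By position, knockdown-only and control-only regions were spread over genes and intergenic sequence much as the bases that could be called. The reference was the windows of 10 kb in which at least 1 of the 12 lists had a peak. Bodies of protein-coding genes held 39.9% of knockdown-only and 38.6% of control-only regions, with 39.1% to 40.2% in the mixed pairings and 42.2% of the bases. Promoters, within 1 kb of a coding gene start, held 0.672% (62 regions) and 0.793% (315 regions), with 0.571% to 0.725% in the mixed pairings and 0.988% of the bases. All 6 sets were therefore below the share of bases at promoters, and the exact interval of the control-only set (0.708 to 0.885) reached into the mixed range. Other genes, mostly noncoding, held 13.6% and 13.3%.

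Over the peaks of each library, the promoter share was 0.838% in knockdown 1, 0.709% in knockdown 2, 0.802% in control 1 and 0.834% in control 2. The groups overlapped, and the difference of -0.045 percentage points had an exact permutation p of 1. The coding gene body share was 41.6%, 40.7%, 41.1% and 41.0%, which also overlapped (difference 0.104, exact permutation p of 1). Summits were less dense near gene starts than far from them. Their density within 1 kb of a coding gene start over that 10 to 50 kb away was 0.892 and 0.766 with knockdown, beside 0.852 and 0.867 in control cells. The means were 0.829 ± 0.0888 and 0.860 ± 0.0110 (SD, n = 2 each), with a difference of -0.031 and an exact permutation p of 1.

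**Figure D2:**
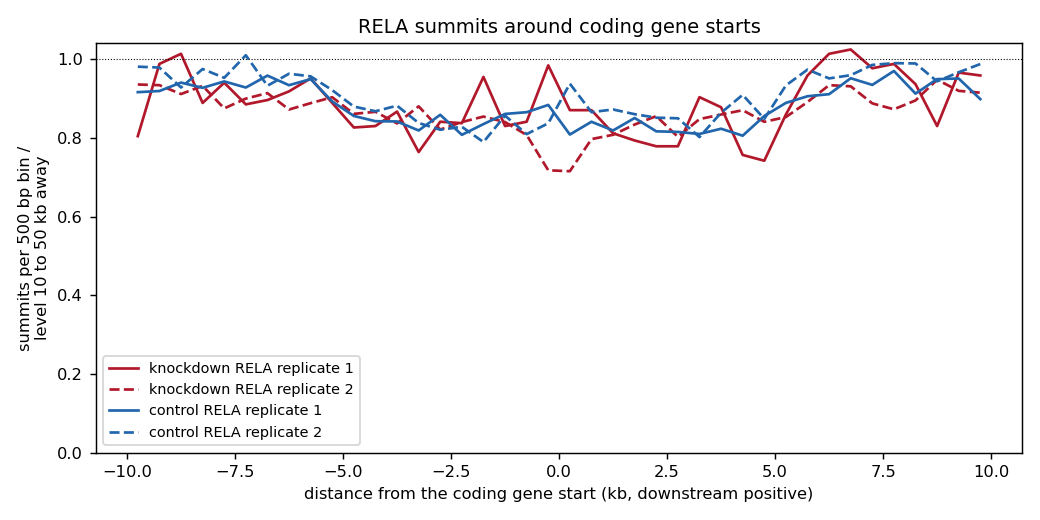
RELA summits per bin of 500 bp around coding gene starts, over the level 10 to 50 kb away, with distance in kb on the horizontal axis and 1 line per library. The bins on either side of the start stand between 0.715 and 0.984 over the 4 libraries, and none rises above the distant level.

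Gene deserts, stretches of at least 500 kb without an annotated gene, held 2.82% of knockdown-only regions (260) and 2.55% of control-only regions (1011), against 1.92% of the bases. The mixed pairings ran from 2.17% to 3.15%, around both values. Outside the heterochromatin bands there were 86 deserts, and 80 held a knockdown-only region while all 86 held a control-only region. The desert with the most knockdown-only regions was chr8:113436940-114290915 between CSMD3 and TRPS1, with 56, 295, 239 and 162 peaks in knockdown 1, knockdown 2, control 1 and control 2, and 13 knockdown-only beside 14 control-only regions. The desert with the most control-only regions was chrX:125392902-126109761 between TEX13C and DCAF12L2, with 38, 410, 318 and 241 peaks and 5 knockdown-only beside 39 control-only regions. In both, the pairing of knockdown 2 with control 1 held more still, 41 and 59 regions. Over the peaks of each library the desert share was 2.18% and 2.66% with knockdown, beside 2.39% and 2.25% in control cells (difference 0.0997 percentage points, exact permutation p of 1).

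The satellite blocks were taken as the centromeric and variable heterochromatin bands of the cytogenetic map with 1 Mb on either side. Such bands are rich in tandem repeats, whose reads map less surely, but the blocks are not a repeat annotation. The 23 bands themselves hold 133 annotated coding genes. Of the block peaks, 1786 of 4283 in knockdown 1 and 7606 of 22318 in knockdown 2 lay in gene-free stretches of at least 500 kb. In control 1 and control 2 these were 10015 of 21537 and 9538 of 21468. The blocks held 4.17% of knockdown-only regions (385, exact 95% interval 3.77 to 4.60) and 6.39% of control-only regions (2537, 6.15 to 6.63). They made up 4.46% of the bases. The mixed pairings were 6.33% and 5.86% with knockdown 1 and 4.11% and 4.17% with knockdown 2. The knockdown-only value thus fell within the mixed range and the control-only value just above its top. The intervals of the control-only set and of knockdown 1 with control 1 overlapped. Over the peaks of each library, the share was 4.06% and 3.25% with knockdown, beside 4.09% and 4.15% in control cells. Both knockdown libraries lay below both controls, knockdown 1 only just, and the difference of -0.465 had an exact permutation p of 0.33, the smallest possible. The direction turned among peaks with a q-value of at most 0.05, of which 83.7% and 69.9% lay in the blocks with knockdown and 81.2% and 62.0% in control cells, from 43 to 179 peaks per library.

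When each list was cut to its 100000 smallest p-values, the 2 condition-only sets moved apart. The blocks then held 6.60% of 1938 knockdown-only regions and 14.8% of 2325 control-only regions, with 9.86% to 12.7% in the mixed pairings. The knockdown-only share was below, and the control-only share above, every mixed pairing. Control-only regions outnumbered knockdown-only regions in 22 of the 23 blocks and equalled them in 1, with 33 against 7 on chromosome 18, 32 against 7 on chromosome 11 and 25 against 7 on chromosome 9. The mixed pairings of the same blocks were often as high, with 29, 19, 28 and 20 on chromosome 11, and control-only regions exceeded all 4 of them in 13 blocks, equalled the highest in 2 and were below at least 1 in 8. In the lists of equal length, 4.10% and 3.97% of knockdown peaks and 5.35% and 5.12% of control peaks lay in the blocks, a difference of -1.20 percentage points with an exact permutation p of 0.33. The 100000 peaks were 94.8% of the list of knockdown 1 and 14.5% to 19.3% of the others, so equal length was not equal stringency. The part of that difference in stringency in the result was not tested. In the same cut of the NFKB2 lists the share was 6.14% and 4.82% with knockdown and 6.18% and 6.32% in control. In the RELB lists it was 4.02% (of only 75060 peaks) and 4.74% with knockdown and 6.45% and 4.77% in control. Both knockdown libraries were thus below both controls for all 3 antibodies, although 4.74% against 4.77% and 6.14% against 6.18% were close. This did not hold over the full RELB and NFKB2 lists, where the groups overlapped. The share there was 4.02% and 3.82% with knockdown and 3.91% and 4.01% in control for RELB, and 3.76% and 3.46% with knockdown and 3.70% and 3.88% in control for NFKB2.

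Regions called by all 4 RELA libraries lay in the blocks in 139 of 563 cases (24.7%), more often than any pairing. Of these 563, 28 also carried a peak in all 8 RELB and NFKB2 libraries, and 26 of the 28 were in the blocks. Among peaks with a q-value of at most 0.05, merging gave 382 regions, 247 of them (64.7%) in the blocks. Knockdown-only at that level was 1 region, chr1:143219759-143220434, in the block of chromosome 1. Of the RELB and NFKB2 libraries, 1 knockdown and 4 control libraries had a peak there. Control-only were 6, at chr1:143239467-143239865, chr4:49710645-49710895, chr7:59759119-59759324, chr10:40892161-40892434, chr10:41186197-41186387 and chr17:22977516-22977674, all in the blocks. Of these 6, that on chromosome 4 and the first on chromosome 10 had a peak with a larger q-value in both knockdown libraries, and that on chromosome 7 in 1. The mixed pairings gave 0, 2, 12 and 6 regions, so the pairing of knockdown 2 with control 1 again held the most. The nearest coding genes to the listed regions lay 649 kb or more away. No condition-only region with a q-value of at most 0.05 lay at a promoter, in a gene body or in a desert.

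**Figure D3:**
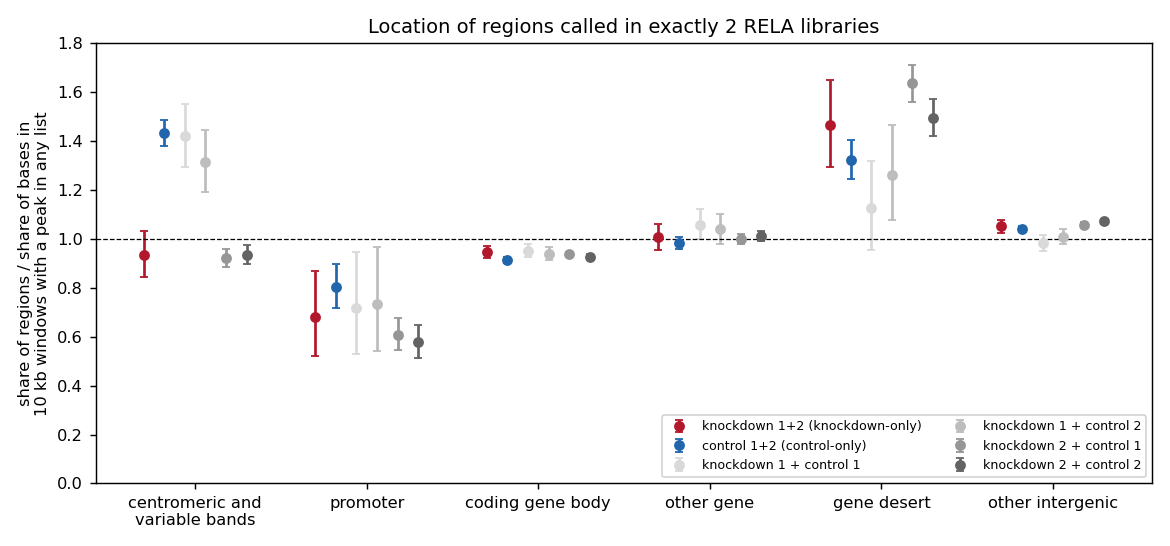
Share of regions in each location class over the share of bases in windows of 10 kb with a peak in any list, for the regions called in exactly 2 RELA libraries. Points are sets, bars are exact 95% binomial intervals (counting error only) and the dashed line marks equality; in the heterochromatin bands the control-only point, 1.43, stands beside that of knockdown 1 with control 1, 1.42, and the knockdown-only point, 0.935, beside those with knockdown 2.

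Within condition-only regions the 2 summits lay about as far apart as in mixed regions. The median distance was 103 bp in knockdown-only regions, against 102 bp in both mixed pairings with knockdown 1. It was 107 bp in control-only regions, slightly below the 110 and 111 bp of the mixed pairings with knockdown 2. Summits were within 50 bp of each other in 25.8% of knockdown-only, 24.2% of control-only and 23.7% to 26.7% of mixed regions. In the heterochromatin bands the median distances were 83 bp and 82 bp.

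RELB, the partner subunit of the noncanonical pathway, and NFKB2, whose processing to p52 activates that pathway, were profiled from the same cells. Knockdown-only regions carried an NFKB2 peak in 25.2% and 21.8% of cases with DAB2IP knockdown and in 15.7% and 15.6% without it. Control-only regions carried one in 15.1% and 16.2% of cases with knockdown and in 25.9% and 25.6% of cases in control cells. The same rise was seen in mixed regions, in the libraries that shared a condition and replicate number with the pair. Knockdown 1 with control 1, for example, gave 25.5% in knockdown NFKB2 replicate 1, 24.3% in control NFKB2 replicate 1, 14.4% in knockdown replicate 2 and 15.4% in control replicate 2. A peak in both NFKB2 libraries of the same condition and number and in neither of the others was found at 4.28% of knockdown-only and 4.87% of control-only regions, beside 4.50% to 4.67% of mixed regions. The overlap thus followed the condition and replicate number together in every pairing, and whether libraries of 1 number share chromatin is not given in the labels. The RELA, RELB and NFKB2 libraries of each condition and number have 1 input library in common, so their peak lists may not be independent. All 4 knockdown RELB and NFKB2 libraries and none of the controls had a peak at 12 knockdown-only regions (0.130%). The mirror case was found at 279 control-only regions (0.703%). In the mixed pairings, all 4 libraries of the same condition and number and none of the others had a peak at 15 of 6918, 7 of 6757, 296 of 55879 and 258 of 52751 regions. As a share, the control-only value was above every mixed pairing. The knockdown-only value lay between those of the pairings that hold knockdown 1. Knockdown RELB replicate 1 had only 75060 peaks, which limits the counts of the sets that hold knockdown 1.

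**Figure D4:**
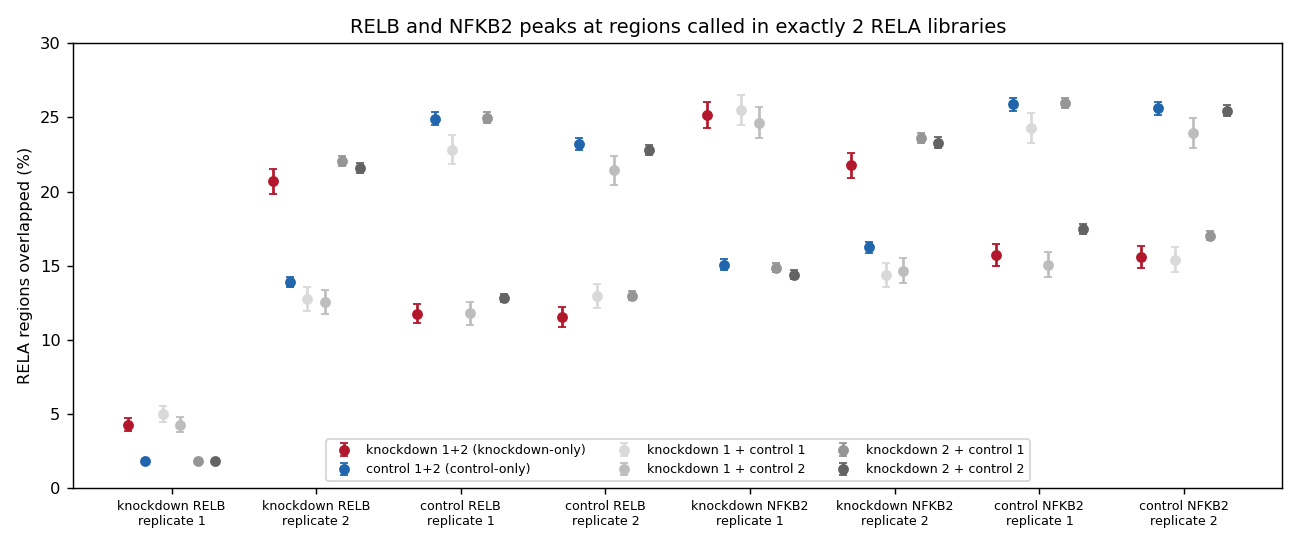
Percentage of the regions called in exactly 2 RELA libraries that a peak of each RELB or NFKB2 library overlapped, with exact 95% binomial intervals (counting error only). In each library the sets that contain the RELA library of the same condition and number sit above the others, for example 25.2%, 25.5% and 24.6% against 15.1%, 14.9% and 14.4% in knockdown NFKB2 replicate 1.

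The regions with the most such support were not at promoters. The 3 knockdown-only regions overlapped in the most RELB and NFKB2 libraries were chr17:38014711-38015038 in the body of a coding gene (7 of 8 libraries, nearest start TBC1D3D, a member of a family of near-identical copies), chrX:113264392-113264611 (7 of 8, at -423671 bp from the nearest start, AMOT) and chr5:47278658-47278894 in the heterochromatin band of chromosome 5 (6 of 8). For control-only regions they were chrX:152144231-152144696 (8 of 8, at -169788 bp from the nearest start, GABRE) and 2 regions of the chromosome 1 band, chr1:121862192-121862679 and chr1:124886780-124887159 (7 of 8 each). In each of these 6 regions at least 3 control and 3 knockdown libraries of the other antibodies had a peak.

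At gene starts, 64 knockdown-only regions lay within 1 kb of the start of 63 coding genes and 320 control-only regions at 318. The mixed pairings gave 49, 50, 341 and 309 regions. Counted by gene, 153 of 15812 (0.968%) had peaks of the knockdown pair alone within 1 kb of the start and 796 (5.03%) of the control pair alone. The mixed pairings gave 127 (0.803%), 124 (0.784%), 953 (6.03%) and 958 (6.06%) genes. All 4 libraries had a peak there in 44 genes (0.278%) and none in 5658 (35.8%), and single libraries covered 6.45% and 30.9% (knockdown) and 27.7% and 28.0% (control) of the starts. The knockdown count was thus higher than both mixed pairings that hold knockdown 1, and the control count lower than both that do not.

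The 10 knockdown-only start regions with the closest summits were at REDIC1, a meiotic crossover factor, ESPL1 (separase, which cleaves cohesin at anaphase), WDR36 (ribosomal RNA processing), POTEM, the kinase PIM3, KLHL4, the transcriptional repressor HIC2, the formin FMN2, the zinc finger repressor ZBTB20 and DRAM2, a lysosomal membrane protein. Their summits lay 0 to 15 bp apart. The ESPL1 region, chr12:53268371-53268569, was centred 171 bp downstream of the start, with summits 1 bp apart, and carried 1 peak of another knockdown library. The DRAM2 region, chr1:111140040-111140220, was centred at -37 bp from the start, and 1 knockdown and 1 control library of the other antibodies had a peak there. The HIC2 region, chr22:21417882-21418208, 674 bp downstream, was overlapped by all 4 knockdown and none of the control RELB and NFKB2 libraries. It was the only one of the 10 with more than 2 knockdown libraries of the other antibodies. POTEM belongs to a family of near-identical copies and lies within 1 Mb of a heterochromatin band, so its reads may be shared.

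The 10 control-only start regions with the closest summits were at GAGE12J, a cancer-testis gene in a cluster of near-identical copies, ETDA, ARMCX6, BTBD6, PFDN4 (a prefoldin subunit), SLC16A7 (a monocarboxylate transporter), the kinase BRSK1, the olfactory receptor gene OR6S1, GPHB5 (a glycoprotein hormone subunit) and ARID3C. Their summits lay 0 to 5 bp apart. The ARMCX6 region, chrX:101618510-101618826, centred at -668 bp from the start, had peaks in 3 control and 1 knockdown libraries of the other antibodies. The PFDN4 region, chr20:54207833-54208097, centred at -122 bp, had peaks in 2 control and no knockdown libraries. None of the 20 promoters held a κB match. Over all start regions, 3.17% of the genes with a knockdown-only and 3.46% of those with a control-only region held one, with 2.00% to 5.04% in the mixed pairings.

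Over whole gene spans with 1 kb on either side, 80 of 19974 coding genes (0.401%) had peaks of the knockdown pair alone and 617 (3.09%) of the control pair alone. The mixed pairings gave 60 (0.3%), 89 (0.446%), 641 (3.21%) and 951 (4.76%) genes. A peak was present in 54.5% of genes in knockdown 1, 84.3% in knockdown 2, 81.4% in control 1 and 84.5% in control 2. All 4 libraries had one in 9919 genes (49.7%) and none had one in 1229 (6.15%). Genes with a peak in only 1 pair of libraries were short, with medians of 5.02 kb for the knockdown pair and 6.35 kb for the control pair against 24.2 kb for all coding genes and 62.4 kb for genes with a peak in all 4. A knockdown-only region lay in 2595 genes (13.0%) and a control-only region in 6735 (33.7%).

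The genes with the most knockdown-only regions were among the longest in the genome. They were CTNNA3 (13 regions), an adherens junction catenin, PCDH15 (12), a protocadherin of hair cells, PRKG1 (12), a cGMP-dependent kinase, PTPRD (11), a receptor phosphatase, and RBFOX1 (11), a splicing regulator. CTNNA3, of 1851 kb, held 102, 569, 396 and 305 peaks in knockdown 1, knockdown 2, control 1 and control 2, and also 31 control-only regions. PRKG1 held 79, 374, 286 and 215 peaks and was the only one of these 5 with fewer control-only regions, 10, than knockdown-only regions. The most control-only regions were in PCDH11X (62), an X-linked protocadherin, DMD (50), dystrophin, IL1RAPL2 (38), CSMD1 (35) and PCDH15 (35). PCDH11X held 41, 486, 448 and 419 peaks, with 2 knockdown-only regions and 77 and 66 in the pairings of knockdown 2 with each control. Knockdown 2 had more peaks there than either control.

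No gene of the 7 fixed lists had peaks in both libraries of 1 condition and in neither of the other, beside 0.401% and 3.09% of all coding genes. Among the subunits, inhibitors and kinases of NF-κB, no gene of 15 held a knockdown-only region and 7 (46.7%) held a control-only region, beside 13.0% and 33.7% of all coding genes. Regions of the mixed pairings lay in 0 to 5 of the 15. NFKB1, the p105 and p50 precursor gene, held 4, 25, 19 and 18 peaks in knockdown 1, knockdown 2, control 1 and control 2, with 2 control-only regions. TRAF3, an inhibitor of noncanonical signaling, held 7, 22, 17 and 24 peaks with 2 control-only regions. IKBKB, the kinase that marks IκBα, held 1, 8, 10 and 13 with 3 control-only regions. RELB, CHUK (IKKα), MAP3K14 (NIK) and TRAF2 held 1 control-only region each. In all these genes knockdown 1 had the fewest peaks, shared with knockdown 2 in MAP3K14. RELA itself held 0, 2, 1 and 3 peaks and NFKBIA 0, 2, 3 and 0, so the conditions overlapped. NFKBIB held none in any library.

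Of 20 known targets, none held a knockdown-only region and 5 (25.0%) held a control-only region. Both were below the 13.0% and 33.7% of all coding genes. The targets are short, with a median of 8.75 kb against 24.2 kb for all coding genes, and the part of length was not tested. The mixed pairings gave 1 to 4 genes. The 5 were BIRC3 and CFLAR, inhibitors of apoptosis signaling, BCL2L1 (BCL-XL), TRAF1 and the chemokine gene CXCL8. BIRC3 held 1, 6, 8 and 3 peaks, CFLAR 2, 9, 14 and 13, and CXCL8 0, 1, 2 and 4, in the same order of libraries. BCL2L1 held 4, 7, 2 and 3 peaks, so that both knockdown libraries had more than either control, although its condition-only region was control-only. TNF and CCL5 held no peak in any library, and IL6 held 1 in knockdown 2. TNFAIP3, the feedback inhibitor A20, held 0, 4, 3 and 2.

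**Figure D5:**
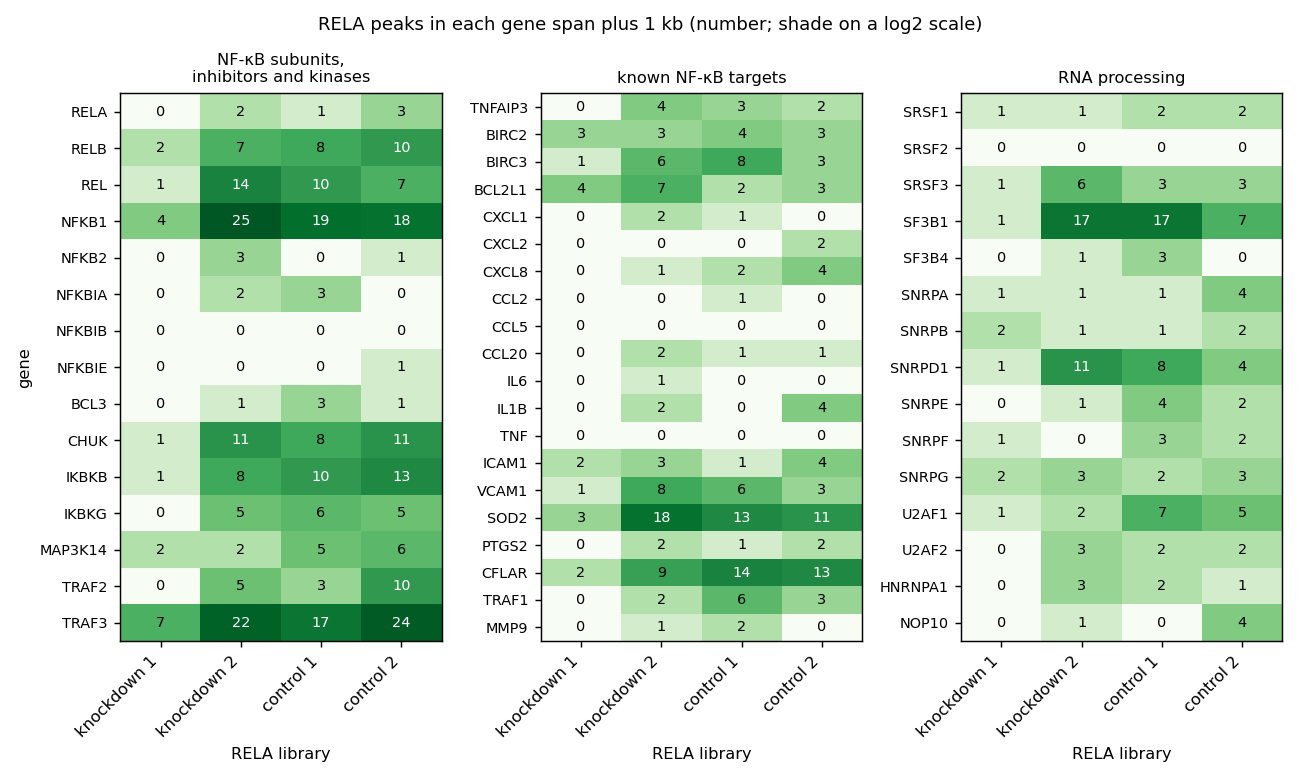
Number of RELA peaks in the span plus 1 kb of each gene of 3 fixed lists, with genes in rows, the 4 libraries in columns and the shade on a log2 scale. Knockdown 1 has few peaks in nearly all genes, for example 4 in NFKB1 against 18 to 25 in the other libraries, and the knockdown and control columns overlap for most genes.

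In the luminal estrogen receptor programme, 2 of 15 genes held a knockdown-only region, ESR1 (the estrogen receptor, 2 regions) and PGR (the progesterone receptor, 1 region). ESR1 held 12, 103, 70 and 45 peaks and PGR 10, 18, 23 and 9, in the order of libraries above. Control-only regions lay in 6 (40.0%), ESR1, PGR, TFF1, GREB1, KRT8 and CA12, with 1 each. The shares of 13.3% and 40.0% stood near the 13.0% and 33.7% of all coding genes, and the mixed pairings gave 0 to 6 genes. Of 15 RNA processing genes none held a knockdown-only region, and SF3B1 and U2AF1 held 2 control-only regions each and SNRPD1 and SNRPF 1 each (26.7% of the list, below the 33.7% of all coding genes, with 0 to 5 genes in the mixed pairings). SF3B1 held 1, 17, 17 and 7 peaks, and U2AF1 1, 2, 7 and 5. Of 15 stemness genes, ALDH1A3, an aldehyde dehydrogenase used as a stem cell marker, held 2 knockdown-only regions and JAG1, a Notch ligand, held 1. ALDH1A3 held 2, 4, 5 and 1 peaks and JAG1 3, 7, 1 and 4. Control-only regions lay in PROM1, ALDH1A1 and EPCAM, with 1 each, and the mixed pairings gave 1 to 4 genes. Among 15 genes restricted to other tissues, TNNT2, cardiac troponin T, held 1 knockdown-only region and CRYAA, a lens crystallin, 1 control-only region. Each was 6.67% of that list, below the 13.0% and 33.7% of all coding genes, and the mixed pairings gave 0 to 2 genes. The median length of the genes in that list was 11.4 kb, and it was 11.2 kb in the RNA processing list. It was 36.7 kb in the list of NF-κB subunits, inhibitors and kinases and 24.2 kb over all coding genes. The part of gene length in these counts was not tested.

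Among the genes the study discusses for binding, TBCA, a tubulin folding cofactor, held 1 knockdown-only and 2 control-only regions and 2, 31, 16 and 11 peaks. No other gene of these 9 held a condition-only region. The share was thus 11.1% in each direction, beside 13.0% and 33.7% of all coding genes. DAB2IP held 5, 20, 22 and 16 peaks and no condition-only region. The others held few. NOP10, a ribonucleoprotein of ribosome and telomerase assembly, held 0, 1, 0 and 4 peaks, and BIRC5, survivin, held 0, 2, 2 and 4. SRSF1, a splicing factor, held 1, 1, 2 and 2, CDK5 0, 3, 1 and 1, and TPI1, a glycolytic enzyme, 0, 2, 0 and 1. TMEM147 held 0, 0, 1 and 0 and PSENEN, a subunit of γ-secretase, 1, 1, 0 and 1. PSENEN was the only gene of these 9 with a peak in both knockdown libraries and in no more than 1 control. All these counts are of RELA peaks. The study reported more RELA binding with knockdown at NOP10 and TPI1, and more RELB binding at TMEM147 and PSENEN. For this the study used peaks that rose with knockdown and signal tracks, which are measures unlike the peak counts given here. It reported p65 at BIRC5 in control cells. BIRC5, TBCA, SRSF1 and CDK5 were absent from its overlap of knockdown ChIP peaks with tumor RNA.

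Condition-only regions were unevenly spread along chromosomes. Chromosome X held 9.24% of knockdown-only and 8.77% of control-only regions, against 5.39% of the bases, with 6.14% to 11.4% in the mixed pairings. Knockdown-only regions reached 15 in 4 windows of 1 Mb, against a median of 3. These began at 22 Mb on chromosome 11, with ANO5, SLC17A6, FANCF and GAS2, and at 82, 122 and 151 Mb on chromosome X. The chromosome 11 window held 64, 291, 213 and 181 peaks, 15 control-only regions and 24 in each pairing of knockdown 2 with a control. The control-only windows with the most regions all lay on chromosome X, beginning at 92 Mb (74 regions, PCDH11X), 89 Mb (59, TGIF2LX) and 91 Mb (58, PABPC5 and PCDH11X), against a median of 13. They held more in the pairings of knockdown 2 with control 1, 79, 86 and 70. The window with the next most was unlike these in that its control-only regions exceeded every mixed pairing. It began at 31 Mb on chromosome 15, with TRPM1, KLF13 and OTUD7A, and held 21, 129, 191 and 181 peaks, 49 control-only and 3 knockdown-only regions, and 2, 3, 26 and 15 in the mixed pairings.

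Over 577 stretches of 5 Mb, with each library scaled to 1000000 peaks, both knockdown RELA libraries lay above both controls in 54 and below both in 148 (35.0% in all), and no single stretch could reach an exact permutation p below 0.33. The shares were 36.4% for RELB and 23.6% for NFKB2. The lowest was 5 to 10 Mb on chromosome 8, with 824, 985, 1381 and 1508 scaled peaks and a log2 ratio of -0.67. RELB was also separate there (log2 ratio -0.37), and NFKB2 was not (-0.09). The largest ratio, at 175 to 180 Mb on chromosome 3, was 0.64, but the groups overlapped there, with knockdown 1 at 2369 scaled peaks against 1392 in knockdown 2 and 1425 and 984 in the controls. At 80 to 85 Mb on chromosome 12 the knockdown libraries had 3014 and 2255 and the controls 1983 and 1598 scaled peaks (log2 ratio 0.56), and RELB (0.29) and NFKB2 (0.45) were separate in the same direction. Of 32 stretches centred in heterochromatin bands, 23 (71.9%) had a ratio below 0, beside 326 (56.5%) of all 577, with a median of -0.17 against -0.05 over all stretches.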

How the data were processed

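RELA ChIP-seq peaks of 2 DAB2IP knockdown and 2 control T47D libraries were analysed. Per the labels and the study's methods, the authors had paired-end reads mapped to hg38 with BWA 0.7.12 and peaks called per library with MACS2 2.1.0, and the submitters' notes also name CASAVA 1.8 and DiffBind. The deposited positions are in base pairs. The deposited −log10 p-values and −log10 q-values of the authors were used only to rank or filter peaks within a list. Other deposited columns (the score, the fold enrichment) were not used. Depth is unknown, and intervals are exact (Clopper-Pearson, 95%).

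Intervals over 5000 bp were dropped, duplicates were counted once, and regions were merged at 1 shared bp. Each midpoint was placed, in this order, in a heterochromatin band with 1 Mb on either side (band edges entered by hand from memory of the published map, rounded, with no table to check them against), within 1 kb of a coding start, in a coding gene, in another gene, in a gene-free stretch of at least 500 kb, or elsewhere. Genes and promoters came from RefSeq (GRCh38.p14), with strand and start for 15812 of 19974 coding genes. Groups followed the labels and were compared with exact two-sided permutation tests. Overlap code was tested on simulated data. The rule for named genes took the 10 start regions per direction with the closest summits, genes the study discusses, list members holding a condition-only region, the 5 genes with the most regions per direction, the 3 regions with the most support from other antibodies and the densest windows. Further members of the fixed lists, deserts, the windows that tie or come next, regions with a q-value of at most 0.05, stretches of 5 Mb and the 4 promoters with a κB match were added after their values were seen. Members and lists were chosen with earlier results of these data known. Groups of 2 were too small for an outlier test. Versions were scipy 1.17.1 for the tests and intervals, pandas 2.3.3 with numpy 2.4.6 for the tables and matplotlib 3.10.9 for the figures, under Python 3.11.15.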

Additional observations from a re-analysis of the deposited data

Results flagged for a closer look

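The 1281 intervals over 5000 bp that were left out all came from knockdown 2, where the longest was 1186 kb, and the other 3 RELA libraries had 0. On the mitochondrial genome, outside the chromosomes compared, peaks of knockdown 2 covered 16.3 kb, and the controls and knockdown 1 had no peak there. Both are signals in data left out of the comparisons that exceed the control libraries. Neither was seen in knockdown 1. Among the RELB and NFKB2 libraries only knockdown NFKB2 replicate 2, of the same condition and number, had such intervals (1308, the longest 1186 kb). Their cause was not tested.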

How the results depend on the processing

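Depth is unknown, groups of 2 cannot reach a p below 0.33, and list lengths differ between the knockdown libraries. With a q-value of at most 0.05, only 43 to 179 peaks per library were left. The knockdown minus control differences then turned to 1.33 percentage points at promoters, -1.82 in gene bodies and 5.21 in heterochromatin bands. Of the 382 merged regions at that level, only 3 lay at promoters. Condition-only regions fell to 1 and 6 (knockdown-only and control-only), with 0 genes in either direction. With deserts of at least 1 Mb the desert difference was -0.0122. With the 100000 smallest p-values there were 1938 and 2325 condition-only regions (mixed 1855 to 2314), 406 knockdown-only genes (mixed 408 to 672), summit distances of 114 and 113 bp, 25.6% and 34.9% of regions overlapped in the NFKB2 replicate 2 library of the same condition, and at most 5 and 14 regions in 1 Mb; the last 2 were chosen after seeing the data. Summits within 100 bp gave 5160 and 21090 regions (mixed 3973 to 28301). Within 1 kb of the start, 153 genes were knockdown-only.

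Leaving out 1 replicate at a time gave log2 differences in peak number of -2.31 (without knockdown 2) to 0.40 (without knockdown 1), and differences of -0.109 to 0.0195 at promoters, -0.321 to 0.529 in gene bodies, -0.137 to 0.336 in deserts, -0.871 to -0.0586 in the bands and -0.0935 to 0.0322 in the density ratio at starts. All changes of direction came from leaving out a knockdown library. Condition-only counts ran from 10912 to 562551 and from 40985 to 448847 regions, and from 133 to 546 and 802 to 4892 genes, because fewer libraries had to call or lack a peak.

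Same-numbered libraries deviated with a correlation of -0.040 over 2936 windows of 1 Mb. With 2 libraries per condition this value cannot tell whether same-numbered libraries were prepared together, and the labels do not say. With the replicate block the differences were unchanged by construction (-0.96 in log2 peak number, -0.0449 at promoters, 0.104 in gene bodies, 0.0997 in deserts, -0.465 in the bands and -0.0307 in the density ratio), with exact p of 0.5 or 1. With only the gene-free stretches of at least 500 kb in the bands, added after seeing the data, the difference was -0.472. The band shares of the RELB and NFKB2 lists were also added then. The density ratio at a q-value of at most 0.05 and the peak number in lists of equal length gave no value.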
